A study of Homo sapiens with 6 samples.

Results

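The genes described are 40 that carry sugar into the cell and break it down: glucose transporters (SLC2A family), lactate transporters (SLC16A family), the enzymes of glycolysis with their isoenzymes, lactate dehydrogenase, the gate through which pyruvate enters the mitochondrion, and the pentose phosphate enzymes. They were chosen by symbol from the 27788 genes of the deposited table, and all 40 were found in it. Their expression was measured by sequencing of poly-A RNA in BJ fibroblasts, an established human foreskin cell line, at day 8 of reprogramming. Every group had received lentivirus with the 4 factors OCT4, SOX2, KLF4 and MYC as a pair of polycistronic constructs, and had grown in serum before a switch to a medium for human embryonic stem cells. The cells were sorted by 2 surface proteins, CD13 (gene ANPEP) and CD201 (gene PROCR). The 3 groups are double-negative cells (CD13- CD201-), CD201-only cells (CD13- CD201+) and double-positive cells (CD13+ CD201+), with 2 libraries each. No uninfected fibroblasts and no finished pluripotent line were analysed here, the cells were taken partway through reprogramming, and their later fate was not part of the table.

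Glycolysis splits glucose into pyruvate and yields ATP without oxygen, and lactate dehydrogenase then turns pyruvate into lactate, which leaves the cell through monocarboxylate transporters. The pyruvate dehydrogenase complex instead feeds pyruvate to the mitochondrial citric acid cycle, and the pyruvate dehydrogenase kinases switch that complex off. The pentose phosphate pathway branches from glucose phosphate and makes ribose for nucleotides and NADPH for biosynthesis. Pluripotent cells are known for a high rate of glycolysis, and a move of metabolism from respiration towards glycolysis is a known part of reprogramming in fibroblasts.

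Many genes of the pathway are textbook targets of MYC, which binds the E-box CACGTG, and of the hypoxia-inducible factors, whose response element has the core ACGTG. The 250 bases before the RefSeq transcript start (build GRCh38.p14) were available for 37 of the 40 genes. SLC2A3, SLC16A1 and PFKFB2 had no entry. In the results the lactate dehydrogenase gene LDHB and the glycolytic enzyme gene PGK1 share an order of the groups. The lactate dehydrogenase gene LDHA and the lactate exporter gene SLC16A3 each have another. The promoters of these genes are shown. They are written 5′ to 3′ along the gene, with ACGTG on either strand in capitals, so that a run of CACGTG is an E-box that holds the core on both strands.
LDHA, chr11:18394313-18394562, plus strand: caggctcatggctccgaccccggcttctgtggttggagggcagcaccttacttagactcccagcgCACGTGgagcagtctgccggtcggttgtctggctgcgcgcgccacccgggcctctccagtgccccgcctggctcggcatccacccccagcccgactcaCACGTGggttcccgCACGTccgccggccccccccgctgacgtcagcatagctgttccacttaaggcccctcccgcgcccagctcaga
PGK1, chrX:78103998-78104247, plus strand: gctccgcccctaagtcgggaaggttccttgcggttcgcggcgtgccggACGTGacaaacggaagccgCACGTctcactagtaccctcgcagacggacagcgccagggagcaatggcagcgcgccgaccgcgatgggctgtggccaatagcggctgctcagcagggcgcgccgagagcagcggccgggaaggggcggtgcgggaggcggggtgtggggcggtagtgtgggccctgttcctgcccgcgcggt
LDHB, chr12:21657843-21658092, minus strand: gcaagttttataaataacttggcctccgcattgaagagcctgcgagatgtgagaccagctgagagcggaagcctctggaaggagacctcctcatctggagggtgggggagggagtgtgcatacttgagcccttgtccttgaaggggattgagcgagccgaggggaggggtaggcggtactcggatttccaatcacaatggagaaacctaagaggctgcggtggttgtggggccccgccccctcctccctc
SLC16A3, chr17:82228185-82228434, plus strand: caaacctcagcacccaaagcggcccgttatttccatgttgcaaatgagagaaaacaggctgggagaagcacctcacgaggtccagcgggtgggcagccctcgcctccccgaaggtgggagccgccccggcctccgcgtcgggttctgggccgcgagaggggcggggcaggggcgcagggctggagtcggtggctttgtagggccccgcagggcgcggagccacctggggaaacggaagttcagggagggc
The LDHA window held 2 E-boxes and a further single core, for 5 matches to ACGTG counted on both strands, and the PGK1 window held 2 cores outside an E-box. Neither the LDHB nor the SLC16A3 window held one. Of the 37 promoters, 12 (32.4%) held ACGTG, against 23.7% of the 9439 promoters of tested genes and 18.7% of all 27305 promoters in the RefSeq table. The E-box was in 4 of the 37 (10.8%; ALDOC, GAPDH, LDHA and PDHB), against 9.05% of tested genes and 6.49% of all. GGGCGG, the GC box to which SP1 binds, was in 28 of the 37 (75.7%), against 68.9% of tested genes and 42.3% of all. A match describes letters in this window and is not a bound site, and which transcript start the cells use was not measured.

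Values are FPKM, fragments per kilobase of transcript length and sequencing depth, as the authors deposited them. A gene was tested where its mean over the 6 libraries was at least 1 FPKM, which 12210 genes and 39 of the 40 members reached. SLC2A12 did not. Changes are differences of log2(FPKM + 1) between groups from a limma fit, with standard errors (SE), and a gene is called where its Benjamini-Hochberg adjusted p over all 12210 genes was under 0.05. The library sums ran from 489152 to 521352 FPKM and 11983 to 12168 genes reached 1 FPKM in a library. FPKM carry no absolute depth, and the relative depth of the libraries, read from the steps between their lowest values, ran from 0.733 to 1.0. The sort genes followed their labels: ANPEP averaged 35.96 FPKM in double-negative cells, 28.89 in CD201-only cells and 155.3 in double-positive cells, and PROCR averaged 17.31, 47.45 and 51.93 FPKM in the same order. Of 15 fibroblast markers, 14 averaged 1 FPKM or more across all libraries. COL1A1, COL1A2, COL3A1, THY1 and VIM were at 244.4 FPKM or more on average in every group, whereas FAP and LUM were under 1 FPKM in both groups without CD13. Nothing in the labels says that the 2 libraries of a group came from separate cultures, so the p-values measure the spread between these libraries, which may be technical.

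In double-negative cells, most genes of the pathway were higher than in double-positive cells. Of the 39 tested, 32 were called: 22 were higher, among them the glucose transporter SLC2A3, the lactate dehydrogenase LDHB and most of the glycolytic enzymes, and 10 were lower, among them the lactate exporter SLC16A3, the kinase PDK2 and the regulator PFKFB3. Over all genes tested, 66.6% were called in this comparison, 42.1% higher and 24.5% lower, so a share of 82.1% of the members stood against a high background. The median log2 change was 0.25 over the members and 0.11 over all genes. The members' median was 0.15 without the first double-positive library (all genes 0.104) and 0.17 with quantile normalization (all genes 0.071). After a correction for GC content it was 0.12 (all genes -0.003). In 36 of 39 members the libraries of the groups did not overlap, against 83.3% of all genes. Changes of at least 0.5 on the log2 scale were called for 10 members, 6 higher and 4 lower, against 24.7% of all genes. A fit limited to genes averaging at least 5 FPKM called 73.4% of genes. It called 20 members higher and 10 lower, with the members under that level left out. With a median-ratio rescaling of the libraries the split became 19 higher and 14 lower, and with the GC correction 20 higher and 12 lower. Higher calls made up 68.8% of the members' calls as deposited (all genes 63.2%). They made up 57.6% with median-ratio rescaling (all genes 50.2%) and 62.5% with the GC correction (all genes 49.1%). That correction moved the median of all genes from 0.109 to -0.003. In bulk RNA, fewer cells of a kind and less RNA per cell cannot be told apart, here and in all that follows.

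In CD201-only cells, 34 of the 39 members were called against double-positive cells, 23 higher and 11 lower. This is 87.2%, against 58.7% of all genes (35.8% higher and 22.9% lower). The median log2 change was 0.16 over the members and 0.08 over all genes, 37 members did not overlap (79.3% of all genes), and 9 members changed by at least 0.5, 4 higher and 5 lower (18.7% of all genes). The members' median was 0.08 after rescaling to TPM, a fixed sum of values for each library (all genes -0.000). It was 0.10 with median-ratio rescaling (all genes 0.020) and 0.08 after the GC correction (all genes 0.003). The split was 18 higher and 13 lower with TPM, 21 and 12 with median-ratio rescaling, and 19 and 13 after the GC correction. Higher calls made up 67.6% of the members' calls as deposited (all genes 61.0%) and 58.1% with TPM (all genes 47.1%). They made up 63.6% with median-ratio rescaling (all genes 51.0%) and 59.4% after the GC correction (all genes 48.8%). The fit limited to genes averaging at least 5 FPKM called 67.2% of genes. It called 21 members higher and 11 lower, with the members under that level left out. Both comparisons use the same double-positive libraries, so their directions are not independent of each other.

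Between double-negative and CD201-only cells, 23 members were called, 15 higher and 8 lower in double-negative cells. This is 59.0%, against 37.9% of all genes (21.5% higher and 16.5% lower), with a median log2 change of 0.10 over the members and 0.04 over all genes. The members' median was 0.06 with median-ratio rescaling (all genes -0.000) and with the GC correction (all genes 0.007). It was 0.12 with TPM rescaling (all genes 0.061) and 0.11 with quantile normalization (all genes 0.007). In 34 members the libraries did not overlap, against 71.9% of all genes. Only SLC16A3 and PDK2 changed by at least 0.5, both lower in double-negative cells, against 9.75% of all genes called with such a change. The fit limited to genes averaging at least 5 FPKM called 43.3% of genes. It called 15 members higher and 8 lower, with the members under that level left out. With median-ratio rescaling the split was 11 higher and 9 lower. Higher calls then made up 55.0% of the members' calls (all genes 46.4%), against 65.2% as deposited (all genes 56.6%). Without 1 library the number of calls ran from 12 to 24, with 12 without the first and 14 without the second double-negative library, and 15 without the first CD201-only library.

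**Figure D1:**
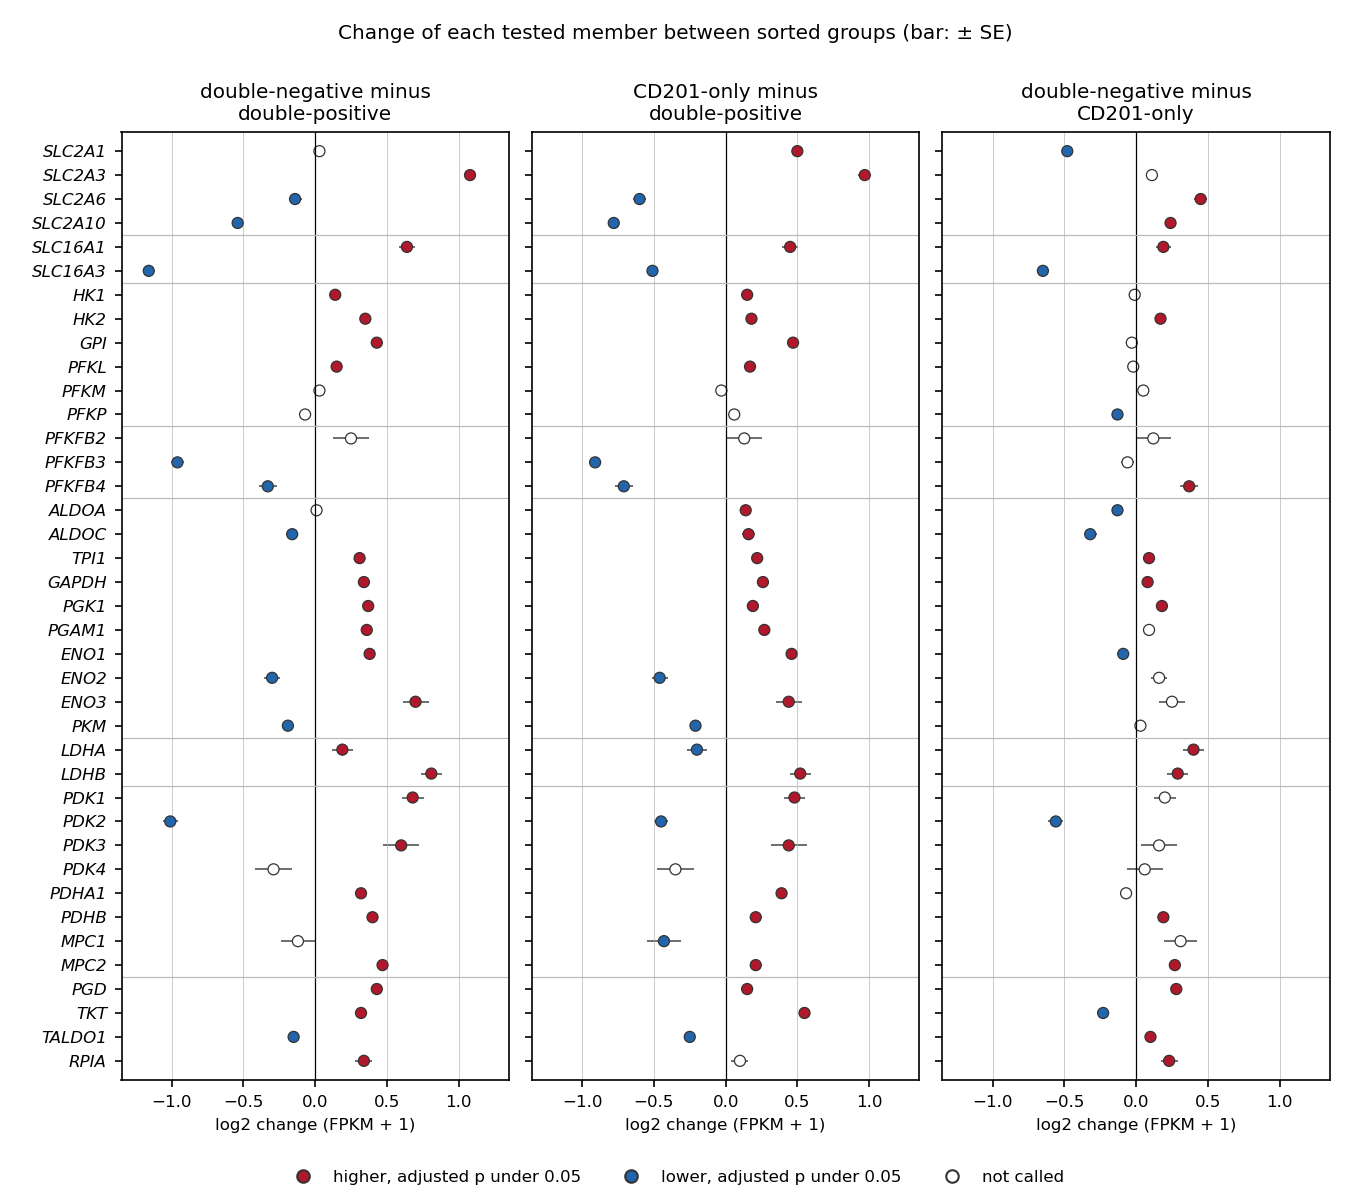
Log2 change of FPKM + 1 (horizontal axis) for each of the 39 tested genes (vertical axis, grouped by role) in the 3 comparisons, as points with bars of ± SE; red is higher and blue lower at an adjusted p under 0.05, and white is not called. SLC2A3 lies farthest right at 1.08 and SLC16A3 farthest left at -1.16 in double-negative minus double-positive cells, and the smallest changes are in double-negative minus CD201-only cells.

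The glucose transporters did not move together. SLC2A1 (GLUT1), the main transporter of most proliferating cells, was at 131.3 and 132.3 FPKM in double-negative libraries, 184.3 and 183.1 FPKM in CD201-only libraries and 128.4 and 130.2 FPKM in double-positive libraries. Its CD201-only libraries stood above all others, while the remaining groups lay close to each other without overlapping. The log2 change was 0.50 in CD201-only relative to double-positive cells (SE 0.0228, adjusted p = 3.06e-06) and -0.48 in double-negative against CD201-only cells (adjusted p = 1.08e-05). Between double-negative and double-positive cells it was 0.03, which was not called (adjusted p = 0.318) and turned to -0.08 with median-ratio rescaling (adjusted p = 0.0224).

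SLC2A3 (GLUT3), a high-affinity transporter known from neurons and early embryonic cells, was at 55.99 and 57.16 FPKM in double-negative libraries, 50.96 and 53.79 FPKM in CD201-only libraries and 25.26 and 27.09 FPKM in double-positive libraries. Both groups without CD13 lay at about the same level and well above the double-positive libraries. The group means were 2.16 times as high in double-negative and 2.0 times as high in CD201-only as in double-positive cells, with log2 changes of 1.08 (SE 0.0444, adjusted p = 1.61e-06) and 0.97 (adjusted p = 3.17e-06). Double-negative and CD201-only cells were 0.11 apart, which was not called (adjusted p = 0.0944). Its near-identical neighbour SLC2A14 can share its reads, so the level of SLC2A3 alone is uncertain.

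The transporters SLC2A6 and SLC2A10, both less studied members of the family, were lowest in CD201-only cells. SLC2A6, which lies mainly on lysosomes, was at 17.71 and 18.93 FPKM in double-negative libraries, 13.19 and 13.01 FPKM in CD201-only libraries and 20.47 and 20.21 FPKM in double-positive libraries. SLC2A10, whose loss causes arterial tortuosity syndrome, was at 15.49 and 15.47 FPKM in double-negative libraries, 12.87 and 13.0 FPKM in CD201-only libraries and 22.9 and 22.93 FPKM in double-positive libraries. For both genes the 3 groups did not overlap and double-positive cells were highest. Their log2 changes in CD201-only relative to double-positive cells were -0.60 (SLC2A6, adjusted p = 3.56e-05) and -0.78 (SLC2A10, adjusted p = 4.45e-06). Double-negative cells differed from double-positive cells by -0.14 (SLC2A6, adjusted p = 0.0264) and -0.54 (SLC2A10, adjusted p = 2.13e-05). The SLC2A6 call in double-negative cells was lost under 5 of the alternatives, with -0.01 after the GC correction (adjusted p = 0.799), -0.10 without the first double-negative library (adjusted p = 0.159), and adjusted p of 0.0888 and 0.0605 without either double-positive library.

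SLC2A12 stayed between 0.3297 and 0.4292 FPKM in the groups without CD13 and was at 0.6923 and 1.044 FPKM in double-positive libraries. It was under the level tested. With no filter on low values its log2 change was -0.48 in double-negative (adjusted p = 0.0131) and -0.38 in CD201-only cells (adjusted p = 0.0316) against double-positive cells. Summed over the 5 transporters, the libraries held 220.9 and 224.3 FPKM in double-negative, 261.8 and 263.3 FPKM in CD201-only and 197.8 and 201.5 FPKM in double-positive cells. The composition also differed: SLC2A1 made up 59.2% ± 0.317 of the sum in double-negative cells, 70.0% ± 0.623 in CD201-only cells and 64.8% ± 0.228 in double-positive cells (SD, n = 2 each). SLC2A3 made up 25.4% ± 0.0977, 19.9% ± 0.678 and 13.1% ± 0.476 in the same order.

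The lactate transporters moved in opposite directions. SLC16A3 (MCT4), the exporter typical of strongly glycolytic and hypoxic cells, was at 59.15 and 57.89 FPKM in double-negative libraries, 93.59 and 91.19 FPKM in CD201-only libraries and 134.5 and 130.1 FPKM in double-positive libraries. The groups were far apart, in the order double-negative, CD201-only, double-positive from low to high. Its log2 change of -1.16 in double-negative relative to double-positive cells (SE 0.03, adjusted p = 2.41e-07) was the largest among the members. It was -0.51 in CD201-only relative to double-positive cells (adjusted p = 9.99e-06) and -0.65 in double-negative against CD201-only cells (adjusted p = 9.25e-06).

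SLC16A1 (MCT1), a transporter that carries lactate both into and out of cells, was at 54.38 and 56.4 FPKM in double-negative libraries, 47.08 and 49.72 FPKM in CD201-only libraries and 33.33 and 37.04 FPKM in double-positive libraries. Its order was the reverse of that of SLC16A3, with no overlap. The log2 change was 0.64 in double-negative (adjusted p = 5.08e-05) and 0.45 in CD201-only cells (adjusted p = 0.000372) against double-positive cells. SLC16A1 made up 48.6% ± 1.03 of the FPKM of the pair in double-negative cells, 34.4% ± 1.28 in CD201-only cells and 21.0% ± 1.63 in double-positive cells (SD, n = 2 each). The step of 0.19 between double-negative and CD201-only cells (adjusted p = 0.0307) was lost under 9 of the alternatives, among them without any single library of these groups (0.15 to 0.23, adjusted p = 0.053 to 0.159). BSG, the chaperone that both carriers need at the membrane, averaged 567.0, 566.1 and 571.6 FPKM in double-negative cells, CD201-only cells and double-positive cells and was called in none of the comparisons.

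**Figure D2:**
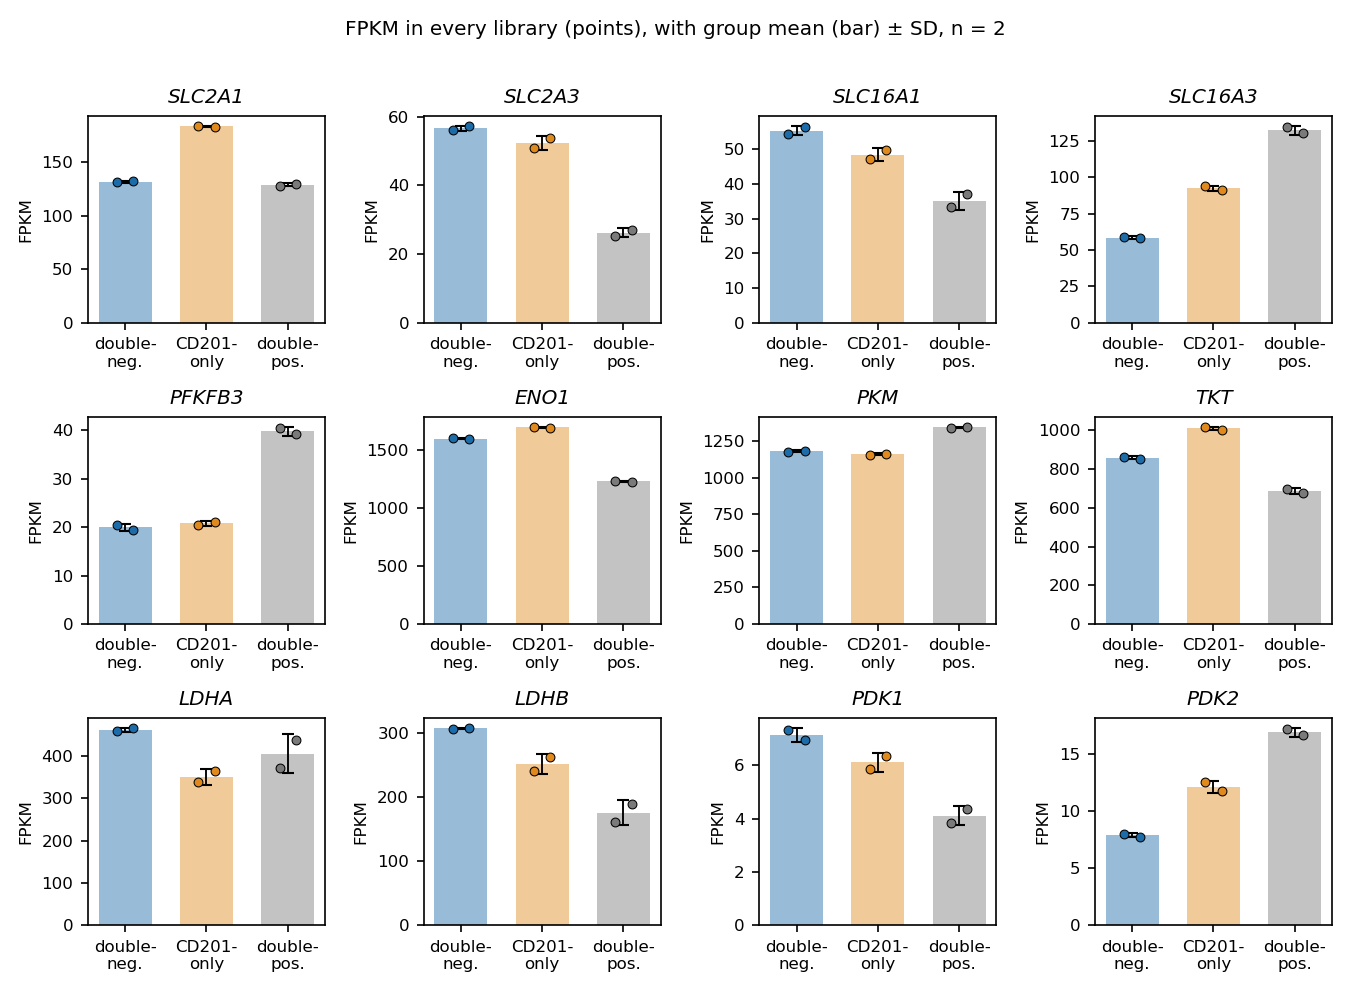
FPKM (vertical axis, from 0) of 12 genes in every library (points), with group means (bars) and SD (n = 2), for double-negative cells, CD201-only cells and double-positive cells. SLC16A1 and SLC16A3 step in opposite directions across the groups, SLC2A1, ENO1 and TKT are highest in CD201-only cells, and PFKFB3 and PKM are highest in double-positive cells.

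At the entry into glycolysis the changes were small. HK1, the ubiquitous hexokinase that traps glucose as its phosphate, was at 64.0 and 66.05 FPKM in double-negative libraries, 65.15 and 65.82 FPKM in CD201-only libraries and 58.86 and 59.09 FPKM in double-positive libraries. HK2, the inducible hexokinase of growing and tumour cells, was at 18.91 and 18.97 FPKM in double-negative libraries, 16.95 and 16.52 FPKM in CD201-only libraries and 14.82 and 14.41 FPKM in double-positive libraries. HK1 overlapped between the groups without CD13, whereas HK2 stepped down through the 3 groups without overlap. HK2 changed by 0.35 in double-negative (adjusted p = 0.000231) and 0.18 in CD201-only cells (adjusted p = 0.0067) against double-positive cells, and made up 22.6% ± 0.355, 20.4% ± 0.408 and 19.9% ± 0.356 of hexokinase FPKM in double-negative cells, CD201-only cells and double-positive cells. The CD201-only call of HK2 was lost after TPM rescaling (0.10, adjusted p = 0.0755) and after the GC correction (0.08, adjusted p = 0.13). HK1 changed by 0.14 (adjusted p = 0.00436) and 0.15 (adjusted p = 0.0037) in the same comparisons, but both calls were lost with median-ratio rescaling (0.03 and 0.08, adjusted p = 0.387 and 0.0512), and in double-negative cells the GC correction turned the sign (-0.0040, adjusted p = 0.908).

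GPI, the isomerase between glucose phosphate and fructose phosphate, averaged 136.7 FPKM in double-negative cells, 140.0 in CD201-only cells and 101.1 in double-positive cells, with log2 changes of 0.43 and 0.47 against double-positive cells. Phosphofructokinase, which commits sugar to glycolysis, has 3 isoenzymes, and of them only the liver form PFKL was called against double-positive cells. PFKL was at 105.2 and 106.8 FPKM in double-negative libraries, 108.1 and 107.3 FPKM in CD201-only libraries and 95.97 and 95.16 FPKM in double-positive libraries. Its log2 changes were 0.15 (adjusted p = 0.00138) and 0.17, and the double-negative call was lost with median-ratio rescaling (0.04, adjusted p = 0.209). PFKM, the muscle form, was at 49.59 and 48.0 FPKM in double-negative libraries, 46.45 and 47.6 FPKM in CD201-only libraries and 49.01 and 46.82 FPKM in double-positive libraries. PFKP, the platelet form, was at 105.6 and 104.2 FPKM in double-negative libraries, 116.1 and 113.7 FPKM in CD201-only libraries and 112.7 and 108.0 FPKM in double-positive libraries. PFKM overlapped between double-positive cells and both other groups, and PFKP did not overlap and was called in double-negative against CD201-only cells (-0.13, adjusted p = 0.0132). Against double-positive cells, PFKP was called in double-negative cells under 6 alternatives, with -0.18 under median-ratio rescaling (adjusted p = 0.00231) and -0.10 without the second double-positive library (adjusted p = 0.0228). PFKP was also called in CD201-only cells without the first double-positive library (0.09, adjusted p = 0.0448), and PFKM there under 2 alternatives (-0.12 with TPM rescaling, adjusted p = 0.0302).

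The bifunctional PFKFB enzymes make and remove the sugar bisphosphate that activates phosphofructokinase, and those with a clear level were highest in double-positive cells. PFKFB3, the form with the strongest kinase activity, was at 20.51 and 19.37 FPKM in double-negative libraries, 20.46 and 21.14 FPKM in CD201-only libraries and 40.49 and 39.17 FPKM in double-positive libraries. Both groups without CD13 overlapped and lay far under the double-positive libraries, with log2 changes of -0.96 (adjusted p = 2.29e-06) and -0.91 (adjusted p = 3.87e-06). PFKFB4, another hypoxia-inducible form, was at 5.896 and 6.224 FPKM in double-negative libraries, 4.628 and 4.267 FPKM in CD201-only libraries and 7.906 and 7.867 FPKM in double-positive libraries. Its groups did not overlap, and it changed by -0.33 (adjusted p = 0.00286) in double-negative and -0.71 (adjusted p = 7.94e-05) in CD201-only relative to double-positive cells. PFKFB2, the heart form, stayed between 0.702 and 1.337 FPKM in all libraries and was not called. Its change of 0.25 in double-negative relative to double-positive cells was 0.39 without the second double-positive library, the higher of that group. PFKFB2 averaged 0.8871 FPKM in double-positive cells and reached the level tested through the groups where it is higher.

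In the trunk of glycolysis, TPI1, GAPDH, PGK1, PGAM1 and ENO1 were higher in both groups without CD13 than in double-positive cells, except that quantile normalization turned GAPDH in CD201-only cells. TPI1 averaged 695.1 FPKM in double-negative cells, 655.2 in CD201-only cells and 560.8 in double-positive cells, and GAPDH, the most abundant of the 40 genes, averaged 4584, 4329 and 3626 FPKM in the same order. PGK1, which makes the first ATP of the pathway, averaged 314.5, 277.7 and 243.6 FPKM, and PGAM1, the mutase after it, 84.87, 79.71 and 65.93 FPKM. Against double-positive cells these 4 genes changed by 0.31 to 0.37 on the log2 scale in double-negative cells and by 0.19 to 0.27 in CD201-only cells, all called, although quantile normalization turned GAPDH to -0.05 in CD201-only cells (adjusted p = 0.0139). TPI1, GAPDH and PGK1 were also called higher in double-negative than in CD201-only cells, by 0.08 to 0.18, but without any single library of these groups the calls of TPI1 (adjusted p = 0.0543 to 0.0866) and GAPDH (adjusted p = 0.0717 to 0.125) were lost. Processed pseudogenes exist for several of these genes, GAPDH and PGAM1 among them, and how reads shared with such copies were assigned is not given in the sources used here.

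ALDOA, the main aldolase, averaged 757.3 FPKM in double-negative cells, 827.7 in CD201-only cells and 750.0 in double-positive cells. Of the aldolases, ALDOA changed by 0.14 in CD201-only relative to double-positive cells (adjusted p = 0.00174), which was lost after TPM rescaling (0.05, adjusted p = 0.101), and by 0.01 in double-negative cells, which was not called (adjusted p = 0.62) and turned to -0.09 with median-ratio rescaling (adjusted p = 0.0168). ALDOC, the brain form, averaged 20.42, 25.63 and 22.84 FPKM, with -0.16 in double-negative and 0.16 in CD201-only cells against double-positive cells (adjusted p = 0.0169 and 0.0174). The CD201-only call of ALDOC was lost under 6 alternatives, among them without the first CD201-only library (0.14, adjusted p = 0.0948) or either double-positive library (0.16, adjusted p = 0.0536 and 0.0532), and its double-negative call without the second double-negative library (-0.11, adjusted p = 0.106) and without the first double-positive library (-0.15, adjusted p = 0.0529).

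The 3 enolases did not share a direction. ENO1, the ubiquitous form, averaged 1599 FPKM in double-negative cells, 1697 in CD201-only cells and 1231 in double-positive cells, with log2 changes of 0.38 and 0.46. ENO3, the muscle form, was at 5.602 and 6.038 FPKM in double-negative libraries, 4.281 and 5.194 FPKM in CD201-only libraries and 3.271 and 3.137 FPKM in double-positive libraries. It was lowest in double-positive cells, without overlap. The log2 changes of ENO3 were 0.70 in double-negative (adjusted p = 0.000431) and 0.44 in CD201-only cells. ENO2, the neuronal form, ran the other way, at 10.52 FPKM in double-negative cells, 9.317 in CD201-only cells and 13.16 in double-positive cells (log2 changes -0.30 and -0.46). ENO1 made up at least 98.7% of enolase FPKM in each library, so the opposite changes of ENO2 and ENO3 touched a small part of the sum.

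PKM, the pyruvate kinase that ends glycolysis, was at 1176 and 1184 FPKM in double-negative libraries, 1154 and 1163 FPKM in CD201-only libraries and 1339 and 1346 FPKM in double-positive libraries. All 4 libraries without CD13 lay under both double-positive libraries, with log2 changes of -0.19 (adjusted p = 0.0001) and -0.21 (adjusted p = 6.11e-05). It was the only abundant glycolytic enzyme, above 100 FPKM, that was lower in both groups without CD13 at the test's threshold. The table gives 1 value for the gene, so its adult and embryonic splice forms were not told apart. PTBP1 and HNRNPA1, splicing factors known to select the embryonic form, averaged 223.7 and 244.1 FPKM in double-negative, 225.0 and 245.4 FPKM in CD201-only and 163.8 and 152.4 FPKM in double-positive cells, with log2 changes of 0.45 and 0.68 in double-negative cells. PTBP1 was named after its values were seen.

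Summed over the 16 glycolytic enzymes, the libraries held 9754 and 9710 FPKM in double-negative, 9570 and 9543 FPKM in CD201-only and 8321 and 8255 FPKM in double-positive cells. Most of this sum came from few genes: GAPDH averaged 4584, 4329 and 3626 FPKM and ENO1 1599, 1697 and 1231 FPKM in the same order. PKM, also abundant, ran the other way at 1180, 1158 and 1343 FPKM. After median-ratio rescaling the sum was higher in CD201-only than in double-negative cells. As deposited, the sum was 1.9% of the library total in double-negative, 1.83% to 1.84% in CD201-only and 1.69% to 1.7% in double-positive cells. Of the 16 enzymes, 10 were higher, 3 lower and 3 not called in double-negative relative to double-positive cells (all genes 42.1% higher and 24.5% lower). In CD201-only relative to double-positive cells 12 were higher, 2 lower and 2 not called (all genes 35.8% and 22.9%). Between double-negative and CD201-only cells 4 were higher, 4 lower and 8 not called (all genes 21.5% and 16.5%).

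Lactate dehydrogenase is a tetramer of LDHA subunits, which favour lactate production, and LDHB subunits, which favour its oxidation. LDHB was at 306.4 and 307.8 FPKM in double-negative libraries, 241.0 and 263.0 FPKM in CD201-only libraries and 161.4 and 189.3 FPKM in double-positive libraries. Its groups formed a descending series without overlap, and it changed by 0.81 in double-negative (adjusted p = 6.72e-05) and 0.52 in CD201-only cells (adjusted p = 0.000736) against double-positive cells. LDHA was at 459.3 and 465.6 FPKM in double-negative libraries, 337.8 and 363.9 FPKM in CD201-only libraries and 372.5 and 438.2 FPKM in double-positive libraries. The double-negative libraries were highest and the CD201-only libraries lowest, while the double-positive libraries differed widely from each other. LDHA was called higher in double-negative than in CD201-only cells (0.40, SE 0.0717, adjusted p = 0.00477), and this call held in all 19 alternatives.

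Against double-positive cells, LDHA changed by 0.19 in double-negative cells (adjusted p = 0.0461) and -0.20 in CD201-only cells (adjusted p = 0.0435), and neither value was stable. The LDHA call in double-negative cells was lost in 14 of 19 alternatives. It held without the second double-positive library (0.31, adjusted p = 0.00168) and was lost without each of the other libraries, and was 0.08 without the first double-positive library (adjusted p = 0.181) and -0.02 after the GC correction (adjusted p = 0.731). The LDHA call in CD201-only cells was lost in 10, with -0.09 without the second double-positive library (adjusted p = 0.147). It held without the first (-0.32, adjusted p = 0.00189) and was lost without each of the other libraries. The difference between the double-positive replicates moved with transcript GC content over 3874 genes of at least 20 FPKM (Spearman -0.43, against -0.15 in CD201-only and 0.07 in double-negative cells; a description across genes of the same libraries), and LDHA and LDHB transcripts have 45.8% and 45.3% GC. The part of GC content in these results was not tested beyond that correction.

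The ratio of the subunits was nearly the same in replicates, also in double-positive cells, where the levels of the replicates differed most. LDHA made up 60.0% and 60.2% of the pair in double-negative, 58.4% and 58.1% in CD201-only and 69.8% and 69.8% in double-positive libraries. The groups did not overlap, and both groups without CD13 were about 10 percentage points under double-positive cells. The shares were not tested: an exact permutation test of 2 libraries against 2 cannot reach 0.05, and a model of the ratios was not fitted.

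**Figure D3:**
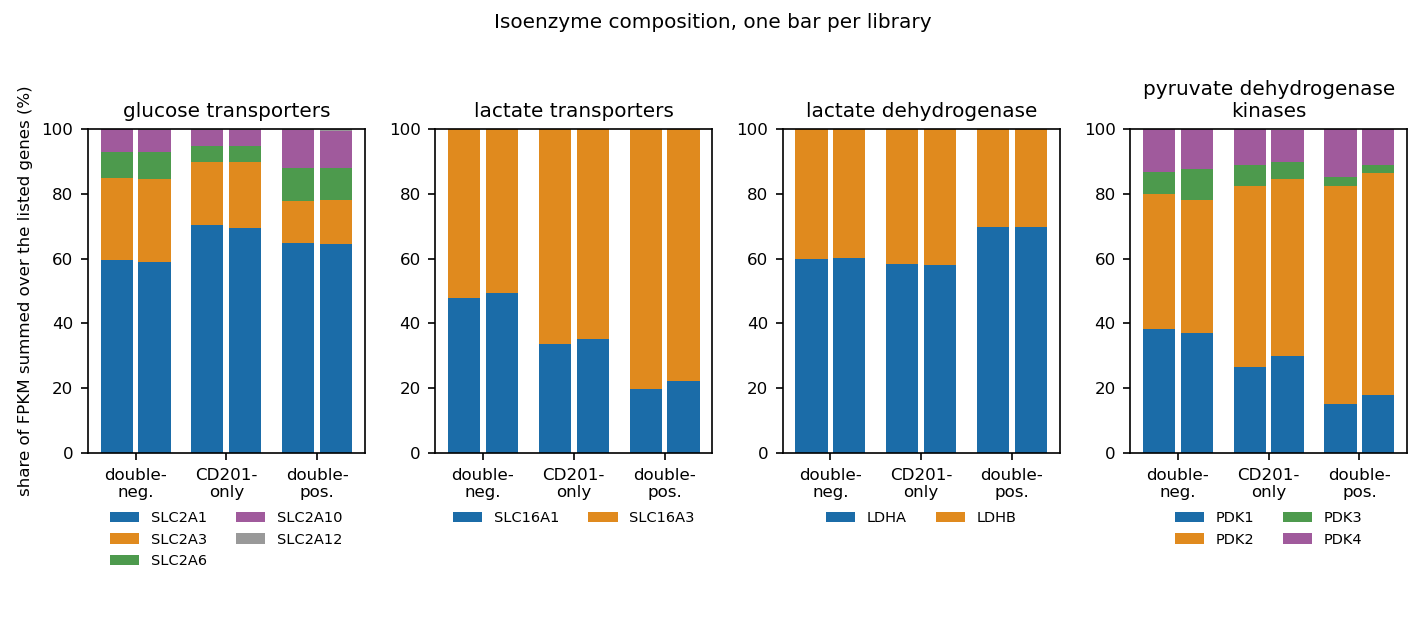
Share of each gene (percent of the FPKM summed over the genes shown, vertical axis) in each of the 6 libraries, for glucose transporters, lactate transporters, lactate dehydrogenase and pyruvate dehydrogenase kinases. In double-negative libraries SLC16A1, LDHB and PDK1 take larger shares than in double-positive libraries, and SLC16A3, LDHA and PDK2 smaller ones; the CD201-only libraries lie between them for the lactate transporters and for PDK1 and PDK2.

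Past pyruvate, the most abundant kinases that inactivate pyruvate dehydrogenase moved in opposite directions. PDK1, the hypoxia-inducible kinase, was at 7.341 and 6.964 FPKM in double-negative libraries, 5.858 and 6.374 FPKM in CD201-only libraries and 3.855 and 4.36 FPKM in double-positive libraries. PDK2, the widely expressed kinase, was at 8.007 and 7.742 FPKM in double-negative libraries, 12.5 and 11.73 FPKM in CD201-only libraries and 17.18 and 16.63 FPKM in double-positive libraries. Neither gene overlapped between groups, and the orders of their means were opposite. For PDK1 the step of 0.20 between double-negative and CD201-only cells was not called (adjusted p = 0.0809). PDK2 changed by -1.01 in double-negative (adjusted p = 4.24e-06) and -0.45 in CD201-only cells (adjusted p = 0.000284) against double-positive cells, and by -0.56 in double-negative against CD201-only cells (adjusted p = 0.00021). PDK1 changed by 0.68 (adjusted p = 0.000204) and 0.48 (adjusted p = 0.00138) against double-positive cells, and the first value was 0.43 after the GC correction (adjusted p = 0.00117). PDK1 made up 37.6% ± 0.88 of the FPKM of the 4 kinases in double-negative cells, 28.1% ± 2.47 in CD201-only cells and 16.5% ± 2.01 in double-positive cells, and PDK2 41.4% ± 0.408, 55.6% ± 0.927 and 67.9% ± 0.797 (SD, n = 2 each).

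PDK3, an isoform with high activity, was at 1.315 and 1.767 FPKM in double-negative libraries, 1.426 and 1.105 FPKM in CD201-only libraries and 0.7298 and 0.6015 FPKM in double-positive libraries. It was lowest in double-positive cells, where it was under 1 FPKM, and the other groups overlapped. It reached the level tested through the groups where it is high, so its calls (0.60, adjusted p = 0.00438, and 0.44, adjusted p = 0.02) carry that choice. The CD201-only call of PDK3 was lost without the first CD201-only library (0.34, adjusted p = 0.109), without the second double-positive library (0.39, adjusted p = 0.0783) and after the GC correction (0.34, adjusted p = 0.0632). PDK4, the starvation-induced kinase, was between 2.144 and 3.739 FPKM. It was not called, at -0.29 in double-negative and -0.35 in CD201-only cells (adjusted p = 0.0501) relative to double-positive cells, but 4 and 8 of the alternatives called it there. Without the second double-positive library the PDK4 changes were -0.47 (adjusted p = 0.00926) and -0.53 (adjusted p = 0.00705).

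The pyruvate dehydrogenase subunits PDHA1 and PDHB were higher in both groups without CD13. PDHA1 averaged 49.05 FPKM in double-negative cells, 51.54 in CD201-only cells and 39.2 in double-positive cells, and PDHB 95.2, 83.31 and 72.1 FPKM, with log2 changes of 0.32 and 0.40 in double-negative cells. MPC1 and MPC2 together form the carrier that brings pyruvate into the mitochondrion. MPC2 averaged 38.69 FPKM in double-negative cells, 32.03 in CD201-only cells and 27.56 in double-positive cells, with changes of 0.47 and 0.21. MPC1 was at 12.18 and 12.84 FPKM in double-negative, 9.149 and 10.66 FPKM in CD201-only and 12.0 and 15.52 FPKM in double-positive libraries, so its double-positive libraries spanned the double-negative ones. Its -0.43 in CD201-only relative to double-positive cells (adjusted p = 0.0167) was lost without the second double-positive library (-0.26, adjusted p = 0.0618) and without the first CD201-only library (-0.33, adjusted p = 0.0975). In double-negative cells the MPC1 change of -0.12 (adjusted p = 0.403) was called without the first double-positive library (-0.29, adjusted p = 0.0373), and MPC1 transcripts have 43.9% GC.

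In the pentose phosphate pathway, TKT, the transketolase that links the pathway back to glycolysis, was at 864.5 and 853.0 FPKM in double-negative libraries, 1017 and 1004 FPKM in CD201-only libraries and 699.7 and 678.0 FPKM in double-positive libraries. The CD201-only libraries were highest and the double-positive ones lowest, without overlap. TKT changed by 0.32 in double-negative (adjusted p = 2.17e-05) and 0.55 in CD201-only cells (adjusted p = 2.04e-06) against double-positive cells, and by -0.23 in double-negative against CD201-only cells (adjusted p = 0.000274). PGD, the dehydrogenase that releases ribulose phosphate and NADPH, averaged 285.8 FPKM in double-negative cells, 235.8 in CD201-only cells and 211.7 in double-positive cells (log2 changes of 0.43 and 0.15). The CD201-only call of PGD was lost after TPM rescaling (0.06, adjusted p = 0.0595). RPIA, which makes ribose phosphate, averaged 16.21, 13.64 and 12.65 FPKM. It was higher in double-negative than in double-positive cells by 0.34 (adjusted p = 0.002), which the GC correction took to 0.16 (adjusted p = 0.0598). TALDO1, the transaldolase, was the one pentose phosphate member that was lower in both groups without CD13, at 236.1 FPKM in double-negative cells, 220.5 in CD201-only cells and 262.7 in double-positive cells (-0.15 and -0.25).

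By the 3 comparisons of each gene, the members fell into a few orders. How many of all genes show each order was not counted, so the orders are a description of the members only. Of all genes, 66.6% were called in double-negative and 58.7% in CD201-only relative to double-positive cells, and 37.9% between double-negative and CD201-only cells. Of the 39, 10 were called highest in double-negative cells against both other groups, and 9 of these stepped down through CD201-only to double-positive cells with all 3 comparisons called: SLC16A1, HK2, TPI1, GAPDH, PGK1, LDHB, PDHB, MPC2 and PGD. Only SLC16A3 and PDK2 stepped in the opposite direction. A further 5 were called highest in CD201-only cells (SLC2A1, ALDOA, ALDOC, ENO1 and TKT) and 5 lowest there (SLC2A6, SLC2A10, PFKFB4, LDHA and TALDO1). Another 9 were lowest in double-positive cells with the other groups not told apart, among them SLC2A3, GPI and PDK1, and PFKFB3, ENO2 and PKM were highest there in the same manner. Of the 23 calls between double-negative and CD201-only cells on which these orders rest, 12 were lost in at least 1 alternative. SLC16A1, TPI1, GAPDH and TALDO1 lost theirs without any single library of the pair of groups. Without the first double-negative library HK2, PFKP, ALDOA, ENO1, LDHB, PDHB and RPIA lost theirs as well, and without the second HK2, PFKP, ENO1, LDHB and RPIA. The first CD201-only library decided those of PFKP, ENO1, LDHB and RPIA, and the second that of HK2. By the F test over the 3 groups 36 of 39 members differed (73.0% of all genes), all but PFKM, PFKFB2 and PDK4.

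Other genes of the same pathways were counted from lists that hold none of the 40. Their counts stand against 42.1% higher and 24.5% lower among all genes in double-negative and 35.8% and 22.9% in CD201-only cells, both relative to double-positive cells, and some lists lie near these shares. Of 27 tested genes of the pyruvate dehydrogenase complex and citric acid cycle, 21 were higher and 2 lower in double-negative relative to double-positive cells, with a median log2 change of 0.24. CS, citrate synthase, averaged 137.3 FPKM in double-negative cells, 102.3 in CD201-only cells and 73.54 in double-positive cells (0.89, adjusted p = 3.84e-06), and the isocitrate dehydrogenases IDH1 and IDH3A changed by 0.74 and 0.67 in double-negative cells. In CD201-only against double-positive cells 16 of the 27 were higher and 1 lower. Of 11 other glycolysis genes, 6 were higher and 1 lower in double-negative and 7 higher and 1 lower in CD201-only relative to double-positive cells. FBP1, the bisphosphatase of gluconeogenesis, averaged 54.65 FPKM in double-negative cells, 41.84 in CD201-only cells and 28.97 in double-positive cells (0.89, adjusted p = 1.96e-06), while BPGM, which makes bisphosphoglycerate, averaged 6.074, 4.598 and 9.064 FPKM (-0.51, adjusted p = 0.000725).

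Of 9 other pentose phosphate genes, 4 were higher and 3 lower in double-negative and 3 higher and 1 lower in CD201-only relative to double-positive cells. PRPS1, which activates ribose phosphate for nucleotide synthesis, averaged 55.36 FPKM in double-negative cells, 50.8 in CD201-only cells and 30.48 in double-positive cells (0.84, adjusted p = 2.18e-06). Of 12 genes of glycogen and hexosamine metabolism, 9 were higher and 2 lower in double-negative and 6 higher and 3 lower in CD201-only relative to double-positive cells. GFPT2, an entry enzyme of the hexosamine pathway, averaged 6.696 FPKM in double-negative cells, 16.36 in CD201-only cells and 31.77 in double-positive cells (-2.09, adjusted p = 2e-07), and GYG1, the protein on which glycogen is primed, averaged 40.4, 24.52 and 21.35 FPKM (0.89, adjusted p = 1.9e-05). Of 7 other sugar and lactate transporters and partners, 2 were higher and 1 lower in double-negative and 1 higher and 2 lower in CD201-only relative to double-positive cells.

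Of 18 tested genes of the hypoxia response outside glycolysis, 3 were higher and 9 lower in both groups without CD13 against double-positive cells, with medians of -0.17 in double-negative and -0.20 in CD201-only cells. P4HA2, a collagen prolyl hydroxylase, averaged 23.64 FPKM in double-negative cells, 32.24 in CD201-only cells and 63.75 in double-positive cells (-1.39, adjusted p = 2.06e-07). NDRG1, a stress-response gene, averaged 20.1, 23.84 and 40.33 FPKM (-0.97, adjusted p = 4.45e-06), while EGLN3, an oxygen-sensing hydroxylase, averaged 3.083, 1.921 and 0.7282 FPKM (1.25, adjusted p = 0.000101). EGLN3 was under 1 FPKM in both double-positive libraries and reached the level tested through the groups where it is high. The same holds for CA12, counted among the lower genes, which averaged 0.7755, 0.6147 and 2.044 FPKM and is high in double-positive cells. Of 17 regulators of the pathway, 6 were higher and 4 lower in double-negative and 7 higher and 6 lower in CD201-only relative to double-positive cells. EPAS1, the hypoxia-inducible factor HIF-2 alpha, averaged 2.244 FPKM in double-negative cells, 2.918 in CD201-only cells and 13.01 in double-positive cells (-2.11, adjusted p = 6.22e-07), and HIF1A averaged 23.32, 23.43 and 25.99 FPKM and was called in no comparison. TXNIP, which holds back glucose uptake, averaged 40.76, 44.93 and 67.89 FPKM (-0.72, adjusted p = 0.000173). MYC averaged 128.3, 136.6 and 174.6 FPKM (-0.44 in double-negative and -0.35 in CD201-only relative to double-positive cells). The virus delivers MYC too, and whether its transcript was counted is not given in the sources used here. Between double-negative and CD201-only cells, where 21.5% of all genes were higher and 16.5% lower, 9 were higher and 3 lower of the 27 citric acid cycle genes, 5 and 2 of the 11 glycolysis genes, 5 and 2 of the 9 pentose phosphate genes, 8 and 1 of the 12 glycogen and hexosamine genes, 1 and 0 of the 7 transporters, 5 and 4 of the 18 hypoxia genes, and 3 and 3 of the 17 regulators.

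**Figure D4:**
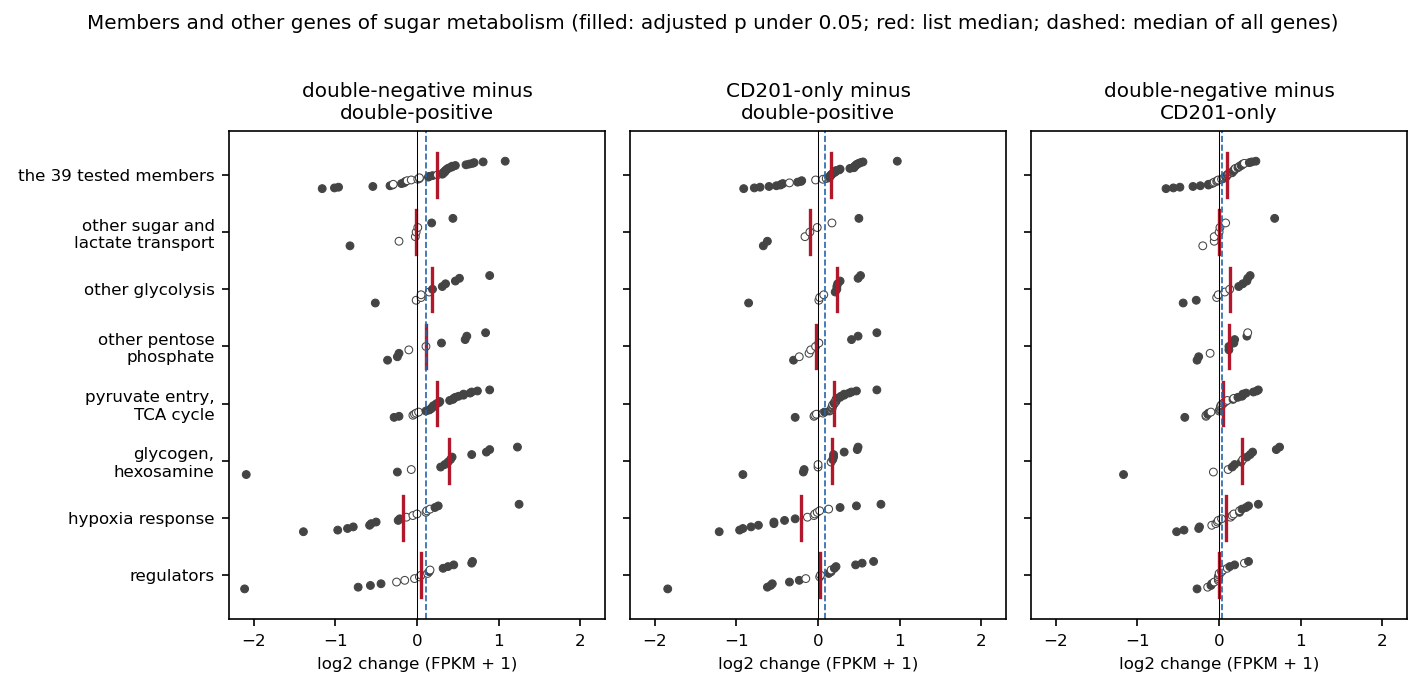
Log2 change of FPKM + 1 (horizontal axis) of the 39 tested members (top row) and of the tested genes of 7 other lists of sugar metabolism (rows) in the 3 comparisons; each point is a gene, filled at an adjusted p under 0.05, with the list median in red and the median of all genes dashed. In double-negative minus double-positive cells the median is 0.25 for the members and 0.24 for pyruvate entry and the citric acid cycle, against -0.17 for the hypoxia response outside glycolysis.

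Markers of cell identity moved with the same groups. Summed FPKM of the 15 fibroblast markers was 5727 to 5729 in double-negative, 6478 to 6493 in CD201-only and 11340 to 11460 in double-positive libraries. Within that sum S100A4 alone averaged 1270, 2566 and 2211 FPKM in the same order. Of 14 tested fibroblast markers, 10 were higher and 3 lower in double-negative than in CD201-only cells (all genes 21.5% and 16.5%). Summed FPKM of 12 pluripotent cell markers, of which DPPA2 was at 0 in all libraries, was 316.0 to 320.0, 205.1 to 205.5 and 88.42 to 92.41. For 12 epithelial markers the sums were 3106 to 3118, 4092 to 4163 and 2078 to 2147 FPKM. Most of that sum was KRT8 (1474, 1851 and 799.3 FPKM on average) and KRT18 (1578, 2139 and 1240 FPKM), whereas EPCAM, OCLN and CLDN6 averaged highest in double-negative cells. The 8 endothelial markers summed to 19.97 to 20.4, 32.66 to 34.8 and 29.39 to 31.84 FPKM, with TEK the largest (13.71, 25.52 and 18.95 FPKM) and KDR in another order (3.056, 0.9592 and 0.5931 FPKM). The 8 blood markers summed to 33.4 to 35.1, 18.23 to 20.0 and 86.6 to 91.32 FPKM, mostly CD68 and CD14, with PTPRC under 1 FPKM and CD3E at 0. Of these 5 lists 14 of 15, 9 of 12, 8 of 12, 4 of 8 and 3 of 8 genes reached a mean of 1 FPKM. In double-negative relative to double-positive cells the tested markers were 2 higher (THY1 and TWIST1) and 12 lower (fibroblast), 9 and 0 (pluripotent), 6 and 2 (epithelial), 1 and 3 (endothelial), and 1 and 2 (blood). In CD201-only relative to double-positive cells they were 1 and 12, 9 and 0, 8 and 0, 2 and 2, and 1 and 2. Among all genes 42.1% were higher and 24.5% lower in double-negative, and 35.8% and 22.9% in CD201-only relative to double-positive cells. LUM, DCN, KDR, TIE1 and LYZ averaged under 1 FPKM in at least 1 group. They reached the level tested through the groups where they are high, so their calls carry that choice. The part of the mixture of cells in the changes of the 40 genes was not tested.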

How the data were processed

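Poly-A RNA of 3 sorted groups of BJ cells, 2 libraries each, was analysed from 1 table of FPKM values deposited by the authors (27788 genes, 6 library columns, 0 columns unassigned). STAR and Cuffnorm on hg19 and GRCh37 were used, per the submitters' processing notes. Not given in the sources used here: versions, annotation, the scaling option and whether counting used strand. Depth is unknown, so no counting intervals are given.

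Values were used as log2(FPKM + 1), which understates changes of genes near 1 FPKM. The 12210 genes averaging 1 FPKM or more were fitted in limma 3.58.1 (R 4.3.3) with a coefficient per group and a variance trend, on 3 residual degrees of freedom with a prior worth 3.95. Benjamini-Hochberg adjustment ran over all genes of a comparison, and tests are two-sided. The fit was tested on simulated data. Shares and sums are of FPKM within a library. Tables were handled and plots drawn with Python 3.11.15, pandas 2.3.3, numpy 2.4.6 and matplotlib 3.10.9. Promoters are from RefSeq.

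Members with a called log2 change of at least 0.5 and no overlap, and HK1, HK2, PFKL, PFKM, PFKP, PKM, LDHA, LDHB, SLC2A1, SLC2A3, SLC16A1 and SLC16A3, are given in every library. From each other list at most 3 called genes with the largest change are named, besides MYC, HIF1A, ANPEP and PROCR; some genes are not reported here, and BSG and PTBP1 were added after their values were seen. The members and lists were chosen with earlier results of these data known. A GC correction by transcript GC (GENCODE transcripts, a value for 97.9% of tested genes) and averaged double-negative libraries were alternatives chosen after seeing the data.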

Additional observations from a re-analysis of the deposited data

How the results depend on the processing

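Of the called members, 26 of 32 kept their call and direction in all 19 alternatives in double-negative minus double-positive cells, 25 of 34 in CD201-only minus double-positive cells and 11 of 23 in double-negative minus CD201-only cells. Uncalled members gained a call in at least 1 alternative in 5 cases (PFKP, PFKFB2, ALDOA, PDK4 and MPC1), 3 cases (PFKM, PFKP and PDK4) and 7 cases (SLC2A3, PGAM1, ENO2, ENO3, PKM, PDHA1 and MPC1) in the same order. The numbers called ran from 30 to 34, 30 to 35 and 12 to 26. In double-negative minus CD201-only cells 15 were called without the variance trend (5 lower) and 14 with averaged double-negative libraries (8 higher). Leaving out 1 library gave 12 to 24, with 7 to 16 higher and 5 to 8 lower.

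Replicate numbers are shared by the groups, but the correlations of replicate differences were -0.07, 0.12 and 0.08 over 12210 genes, so pairing was not established. A fit with a replicate block called 22 higher and 12 lower, 23 and 12, and 18 and 8 in the order above.

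Signs turned for 15, 5 and 11 values in the order above, of which 2, 1 and 0 were of called members (HK1 and LDHA, then GAPDH). In double-negative minus double-positive cells, SLC2A1 became -0.04, -0.08 and -0.03, PFKM -0.04, -0.08 and -0.02, and ALDOA -0.05, -0.09 and -0.06 under rescaling to TPM, median-ratio rescaling and quantile normalization. Under the GC correction HK1 became -0.0040, PFKM -0.09 and LDHA -0.02. Leaving out 1 library each gave PFKM -0.01 to 0.06, ALDOA -0.0020 to 0.03 and MPC1 -0.29 to 0.06. In CD201-only minus double-positive cells, PFKP became -0.03 (TPM) and -0.01 (median-ratio) and GAPDH -0.05 (quantile), and leaving out 1 library gave PFKM -0.06 to 0.01 and PFKFB2 -0.01 to 0.27. In double-negative minus CD201-only cells, HK1 became 0.01 and PFKL 0.0013 (TPM), PKM -0.01 (median-ratio) and PDK4 -0.01 (quantile). There the GC correction gave GPI 0.04, PFKL 0.12, PFKFB2 -0.0020, PFKFB3 0.01 and PDK4 -0.10, and leaving out 1 library gave HK1 -0.03 to 0.01 and PDK4 -0.01 to 0.12. The causes were not tested.

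The summed glucose transporters were 434.19, 503.87 and 408.02 as TPM and 214.52, 260.45 and 207.31 FPKM after median-ratio rescaling in double-negative cells, CD201-only cells and double-positive cells. The glycolytic enzymes were 18986, 18341 and 16940 as TPM and 9380.4, 9480.5 and 8607.5 FPKM after median-ratio rescaling, which put CD201-only cells above double-negative cells. TPM is another unit. With 2 libraries a group and no counts, the spread limits what can be seen: the coefficient of variation of a tested member had a median of 1.96% to 2.0% in a group and reached 29.5% (PFKFB2 in double-positive cells).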
